A study of Mus musculus with 6 samples.

Results

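RGS proteins, the regulators of G-protein signalling, were followed through 10 genes (Rgs2, Rgs3, Rgs4, Rgs5, Rgs10, Rgs12, Rgs14, Rgs16, Rgs17 and Rgs19) out of 20653 genes named on the arrays. These genes were picked by symbol with earlier results of the injury comparison in view, and every probe whose transcript maps to one of them is shown, 18 probes in all. Their differences between the groups are therefore given as a description, without a test.

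RNA came from mouse liver cells sorted for CD63 and then cultured, and each of 6 RNA samples was hybridised to 1 Agilent whole-mouse-genome array labelled with Cy3. The 3 DDC injury samples held cells from livers with DDC-induced injury, DDC being a porphyrinogenic compound that blocks haem synthesis and injures the bile ducts, and the 3 no-injury samples held cells from livers without injury. The 2 groups shared 1 culture medium, DMEM/F12 with fetal bovine serum, HGF, EGF, insulin-transferrin-selenium, dexamethasone, nicotinamide, 2-mercaptoethanol and antibiotics, so the levels are those of cultures. Certain cultures also received VEGF and bFGF, but their code names match no sample title. The deposited names of no-injury replicates 2 and 3 bear numerals found in those code names, so addition of these growth factors may differ between the groups and its part in any result was not tested. The labels give no strain, age, sex, passage, DDC dose or exposure time. The series' own design entry describes the material as cell lines.

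No-injury replicates 1 and 3 did not differ detectably beyond the noise of repeated spots (spread 1.05 times that noise, chi-square 127.8 over 118 bright probes with at least 8 usable spots, 117 degrees of freedom, p = 0.232) and were counted as 1 sample, which left 3 DDC injury samples and 2 no-injury samples. The no-injury arrays lay closer to each other than the DDC injury arrays did. Over the 14 RGS probes that were well above background on all 6 arrays, the range over 3 arrays had a median of 0.12 in the no-injury group and 0.43 in the DDC injury group, on the log2 scale. Nothing says that the no-injury samples were separate cultures, so p-values may measure a technical spread only. The arrays were scanned in 3 runs, and no run mixed the groups, so scan and group cannot be told apart. DDC injury replicate 1 was the only array of its run and of its day, and the other 5 arrays shared a day, so where replicate 1 stands apart below, its scan cannot be told apart from the sample. Between 65.0% and 74.8% of the 43020 spots that were not controls were well above background, and no spot was saturated. Cd63, the gene of the sorted surface protein, was well above background on all 6 arrays and differed by -0.11 (limma adjusted p = 0.66). The biliary keratins Krt7 and Krt19 and the hepatocyte regulator Hnf4a were well above background on all 6 arrays, while albumin, Alb, was so on 2 of 3 DDC injury arrays. Of 7 hepatocyte markers 4 were called lower in the DDC injury group (Alb, Ttr, Apoa1 and Fga), and so were the cholangiocyte markers Epcam, Sox9 and Prom1 and 3 of 5 tested mesothelial markers. The part of such shifts in the results below was not tested.

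A G-protein-coupled receptor switches on a heterotrimeric G protein by loading its alpha subunit with GTP, and the signal ends when the alpha subunit hydrolyses that GTP. RGS proteins speed up this hydrolysis through a shared RGS domain and so shorten signalling through the Gi and Gq classes of alpha subunit. Small members such as Rgs2, Rgs4, Rgs5 and Rgs16 are little more than this domain, the RZ members Rgs17, Rgs19 and Rgs20 add a string of cysteines that is lipid-modified, and the larger Rgs12 and Rgs14 carry further domains that bind Ras-like proteins and inactive alpha subunits. In liver, receptors of this kind answer to glucagon, adrenaline, thrombin, nucleotides and bile acids, and RGS genes are often switched on by the signals that their proteins limit.

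The promoter sequences of Rgs17, Rgs2 and Rgs4 are shown because Rgs17 had the largest difference upwards among the RGS genes, Rgs2 the largest downwards with the scaling used here, and Rgs4 lay lower with both of its probes. With normexp correction the brightest Rgs3 probe lay further down (-1.09) than that of Rgs2 (-0.78), as it did with the authors' deposited values (-1.04 and -0.90). Each is the 250 bases upstream of an annotated start in RefSeq (build GRCm38.p6), read 5′ to 3′ on the gene's own strand, here the minus strand for all of them. The windows are chr10:5922401-5922650 for Rgs17, chr1:144004150-144004399 for Rgs2 and chr1:169747643-169747892 for Rgs4. Capitals mark, on either strand, the GC box GGGCGG, the short cyclic-AMP response motif TGACG and the TATA box TATAAA.
Rgs17: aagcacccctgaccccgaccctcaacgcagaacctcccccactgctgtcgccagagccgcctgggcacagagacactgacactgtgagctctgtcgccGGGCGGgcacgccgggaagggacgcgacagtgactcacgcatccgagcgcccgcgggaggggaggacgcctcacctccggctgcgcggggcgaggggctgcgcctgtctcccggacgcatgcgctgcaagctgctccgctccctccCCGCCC
Rgs2: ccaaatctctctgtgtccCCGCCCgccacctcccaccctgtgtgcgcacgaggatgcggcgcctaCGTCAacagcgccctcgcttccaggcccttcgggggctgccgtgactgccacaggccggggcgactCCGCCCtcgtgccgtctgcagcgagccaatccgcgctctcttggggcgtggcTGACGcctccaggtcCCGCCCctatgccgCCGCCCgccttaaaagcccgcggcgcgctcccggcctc
Rgs4: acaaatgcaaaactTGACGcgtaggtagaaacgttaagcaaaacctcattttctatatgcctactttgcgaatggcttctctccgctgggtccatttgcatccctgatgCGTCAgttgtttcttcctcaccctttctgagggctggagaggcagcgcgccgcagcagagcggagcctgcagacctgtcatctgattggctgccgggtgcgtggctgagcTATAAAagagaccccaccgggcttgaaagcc
The Rgs17 window held 2 GC boxes and neither of the other motifs, and 27 CpG dinucleotides. The Rgs2 window held 4 GC boxes, 2 copies of TGACG and 30 CpG dinucleotides. The Rgs4 window held 1 TATA box, 2 copies of TGACG, no GC box and 13 CpG dinucleotides. RefSeq gave 13 start windows for 9 of the 10 genes, and Rgs14 had none in the table used. Of these 13 windows, 9 held GGGCGG against 32.7% of 32851 mouse windows of the same length, 3 held TGACG against 17.8%, 3 held TATAAA against 12.4%, and 0 held the full response element TGACGTCA, which contains TGACG, against 1.55%. Several of the 13 windows belong to 1 gene or overlap, and the arrays measured transcript levels and not promoter use.

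All levels below are log2 processed signals relative to the 75th percentile of the same array, so that 0 stands for a spot as bright as that percentile. Signal depends on the probe as well as on the transcript, and levels are therefore compared only within a probe. Differences are DDC injury minus no injury. Of the 18 probes, 14 were well above background on all 6 arrays and 2 on none, the single Rgs5 probe and 1 of 3 Rgs3 probes. A gene is represented by its brightest probe and was tested only if 3 or more arrays had that probe well above background, which 9 of the 10 genes passed and Rgs5 did not. By that probe the 3 DDC injury arrays lay above all 3 no-injury arrays for 4 genes (Rgs10, Rgs12, Rgs17 and Rgs19), below them for 4 (Rgs2, Rgs3, Rgs4 and Rgs14), and overlapped them for Rgs16. A second Rgs3 probe, also well above background on all 6 arrays, lay higher without overlap (difference 2.20). The place of Rgs3 in this count therefore depends on the probe that stands for it. Among all 15425 genes with a value on every array the groups did not overlap in 63% (31.5% higher and 31.5% lower).

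**Figure D1:**
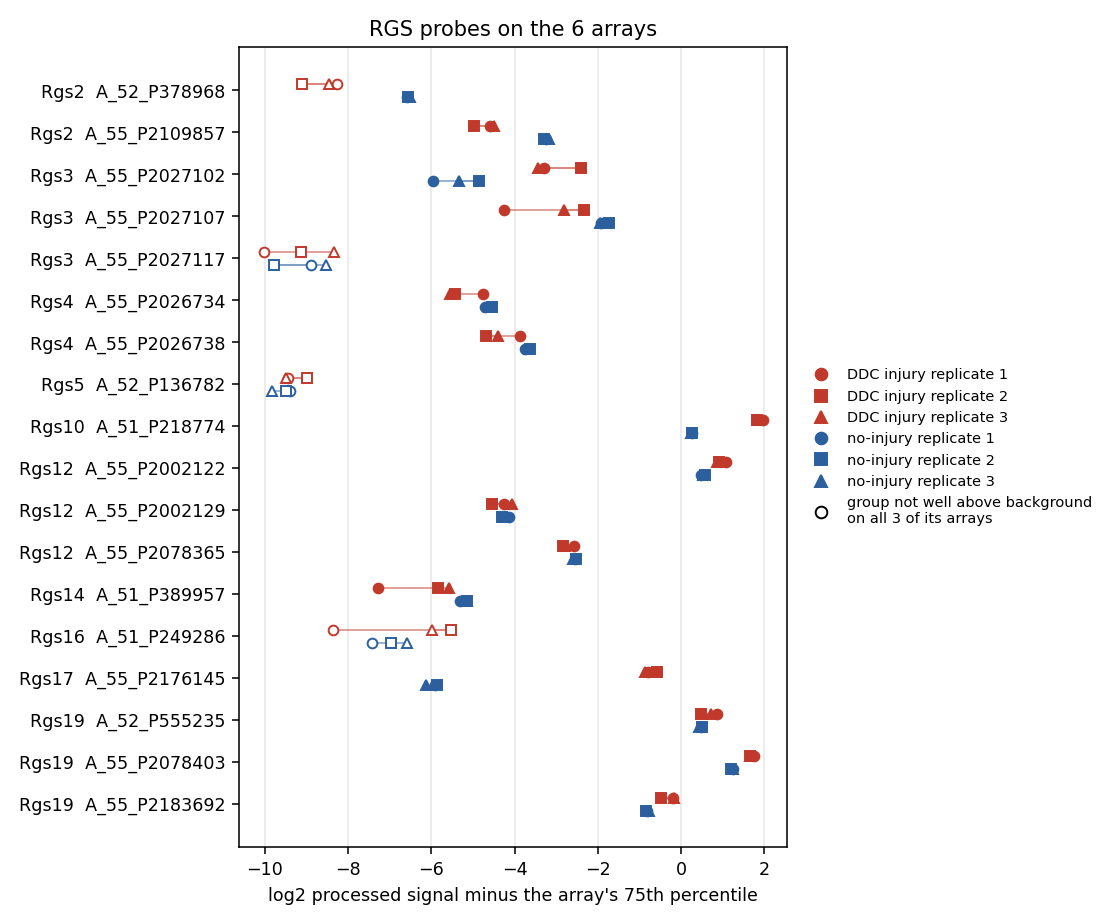
Level of each of the 18 RGS probes on each array, as log2 signal relative to the 75th percentile (horizontal axis), DDC injury arrays in red and no-injury arrays in blue, with a marker shape for each replicate number and a thin line over the range of a group. Open markers are those of a group that was not well above background on all 3 of its arrays; the Rgs17 arrays lie near -0.75 and -5.95, and DDC injury replicate 1 stands apart in Rgs14, Rgs16 and 1 probe of Rgs3.

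The RZ members Rgs17 and Rgs19 were both higher in the DDC injury group. Rgs17 (probe A_55_P2176145), which acts on Gi, Gz and Gq alpha subunits, read -0.81, -0.59 and -0.86 on DDC injury replicates 1, 2 and 3. On no-injury replicates 1, 2 and 3 it read -5.92, -5.87 and -6.14. The 3 DDC injury arrays were all high, within 0.27 of each other, and the groups were far apart. The group means were -0.75 ± 0.14 (SD, n = 3) and -5.95 ± 0.12 (SD, n = 2), a difference of 5.19 or 36.6-fold. In units of processed intensity the same probe read 864 to 1299 on the DDC injury arrays and 30.3 to 37.8 on the no-injury arrays, where it was still well above background. Because the no-injury signal is dim, the size rests on the background correction, and the difference was 3.82 with normexp correction and 4.42 with the authors' deposited values.

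Rgs19, also called GAIP, binds Gi alpha subunits on vesicle membranes and had 3 probes. The brightest (A_55_P2078403) read 1.74, 1.65 and 1.66 on DDC injury replicates 1, 2 and 3 and 1.24, 1.19 and 1.25 on the no-injury replicates, a difference of 0.47. A second probe (A_55_P2183692) read -0.19, -0.48 and -0.17 against -0.83, -0.84 and -0.78, a difference of 0.54. With both probes every DDC injury array lay above every no-injury array, by less than 2-fold. The third probe (A_52_P555235) read 0.86, 0.49 and 0.71 against 0.48, 0.49 and 0.42, and here DDC injury replicate 2 fell among the no-injury arrays (difference 0.22).

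Rgs20, the RZ member closest to Rgs17, is not among the 10 genes and served as a comparison. Its brightest probe read 1.95, 2.37 and 2.45 in the DDC injury group and 2.24, 2.23 and 2.13 in the no-injury group. The groups overlapped, and the difference was 0.05 ± 0.19 (SE, limma adjusted p = 0.872, 3 and 2 samples). Its second probe differed by -0.04, and its groups overlapped too. The difference between Rgs17 and Rgs20 was not tested, since Rgs17 was chosen for its value.

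Rgs10, Rgs12 and Rgs14 form the group that acts mainly on Gi alpha subunits. Rgs10, a small member known for restraining inflammatory signalling in macrophages and microglia, had 1 probe, which read 1.96, 1.83 and 1.88 on the DDC injury arrays and 0.27, 0.26 and 0.24 on the no-injury arrays. Neither group spread over more than 0.12. The means were 1.89 ± 0.06 (SD, n = 3) and 0.26 ± 0.01 (SD, n = 2), a difference of 1.63 or 3.10-fold. Over the alternatives tried the difference lay between 1.51 and 1.66.

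Rgs12, a long protein with PDZ, phosphotyrosine-binding and Ras-binding domains, had 3 probes that did not move together. Its brightest probe (A_55_P2002122) read 1.07, 0.91 and 0.86 on the DDC injury arrays against 0.47, 0.57 and 0.51, a difference of 0.42, and the groups did not overlap. The second (A_55_P2078365) read -2.58, -2.83 and -2.79 against -2.54, -2.54 and -2.59. The third (A_55_P2002129) read -4.25, -4.55 and -4.06 against -4.14, -4.31 and -4.22. The groups overlapped with both dimmer probes, whose differences of -0.18 and -0.04 changed sign with quantile normalization or in the authors' deposited table, the second probe to 0.10 in that table and the third to 0.19 with quantile normalization. The higher level in the DDC injury group thus held for 1 of 3 Rgs12 probes, by 1.34-fold.

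Rgs14, which couples Gi alpha subunits to Ras and Rap proteins, had 1 dim probe. It read -7.29, -5.84 and -5.59 on the DDC injury arrays and -5.31, -5.14 and -5.14 on the no-injury arrays. All 3 DDC injury arrays were lower, replicate 1 by far the most. The difference was -1.06 (2.08-fold lower), and without DDC injury replicate 1 it was -0.53. With normexp correction it was -0.22 and the groups overlapped.

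Among the small members of the R4 class, Rgs2 and Rgs4 were lower in the DDC injury group. Rgs2 acts chiefly on Gq and also dampens adenylyl cyclase. Its brighter probe (A_55_P2109857) read -4.59, -4.99 and -4.49 on the DDC injury arrays and -3.26, -3.30 and -3.17 on the no-injury arrays. The groups were separate and each was tight, and the difference was -1.43 (2.69-fold lower). The other probe (A_52_P378968) was well above background on all 3 no-injury arrays, at -6.58, -6.58 and -6.52, and on no DDC injury array. With the scaling used here, the level on that probe was at least 1.82-fold lower in the DDC injury group. This bound was taken against the lowest signal well above background on each array. It did not hold with other processing, where that probe differed by -0.07 (normexp correction) and -0.51 (the authors' deposited values). The brighter probe differed by -0.78 with normexp correction and by -0.90 with the authors' deposited values.

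Rgs4, an inhibitor of Gi and Gq signalling whose protein is short-lived, lies next to Rgs5 on chromosome 1. One probe (A_55_P2026738) read -3.88, -4.69 and -4.41 on the DDC injury arrays against -3.74, -3.64 and -3.65, a difference of -0.66. The other (A_55_P2026734) read -4.75, -5.44 and -5.55 against -4.72, -4.55 and -4.61, a difference of -0.64. With both probes DDC injury replicate 1 lay just below the no-injury arrays and replicates 2 and 3 lay clearly lower. With quantile normalization and in the authors' deposited table the groups overlapped for the first probe, at differences of -0.46 and -0.52. With normexp correction the other probe differed by -0.07.

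Rgs5, used widely as a marker of pericytes, was not well above background on any array. Its probe gave 2.16 to 3.23 intensity units, and its level was not detectable in either group. Of 12 markers of pericytes, smooth muscle and stellate cells, Des, Myh11, Reln, Kcnj8 and Abcc9 were likewise well above background on no array. The summed linear signal of the 12 markers was 1.02 to 1.73 times the 75th percentile on the DDC injury arrays and 0.472 to 0.674 times on the no-injury arrays. On the DDC injury arrays most of this sum was Notch3, which was called higher (2.80, limma adjusted p = 0.00277). Of the 6 tested markers 1 was called higher and 0 lower. Among those not called, smooth-muscle actin Acta2 differed by -1.90 (limma adjusted p = 0.452), Tagln by -1.68, Cnn1 by -1.45, Cspg4 by -1.02 and Pdgfrb by 0.10. Fewer cells of a type and less RNA per cell cannot be told apart in these bulk samples.

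Rgs16, a gene induced by G-protein signals in liver and lymphocytes, was the least settled. It read -8.36, -5.54 and -5.98 on the DDC injury arrays and -7.43, -6.97 and -6.58 on the no-injury arrays, and was well above background on 2 arrays of each group. DDC injury replicates 2 and 3 were the highest of the 6 arrays and replicate 1 the lowest. The difference was 0.36, and without DDC injury replicate 1 it was 1.23 with no overlap between the groups, while without replicate 2 it was -0.18.

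The Rgs3 probes went in opposite directions. Rgs3 encodes several proteins, from short forms with little beyond the RGS domain to a long form with a PDZ domain, and acts on Gi and Gq. The brighter probe (A_55_P2027107) read -4.25, -2.34 and -2.81 on the DDC injury arrays and -1.93, -1.73 and -1.96 on the no-injury arrays, a difference of -1.29. The other probe (A_55_P2027102) read -3.30, -2.40 and -3.43 against -5.95, -4.85 and -5.33, a difference of 2.20.

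Both Rgs3 probes were well above background on all 6 arrays, both separated the groups without overlap, and both are annotated to the same transcript accession. The gap between their differences was 3.49 on the log2 scale, against 0.02 between the Rgs4 probes, 0.33 among the Rgs19 probes and 0.60 among the Rgs12 probes. The opposite signs were seen under each alternative tried, with a range of -1.69 to -0.73 for the brighter probe, the end nearest 0 without DDC injury replicate 1, and of 1.46 to 2.60 for the other. Another probe (A_55_P2027117), annotated to another Rgs3 transcript, was not well above background on any array. Probe sequences were not used here, so which Rgs3 transcripts the probes detect was not tested, and no direction is given for the gene.

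**Figure D2:**
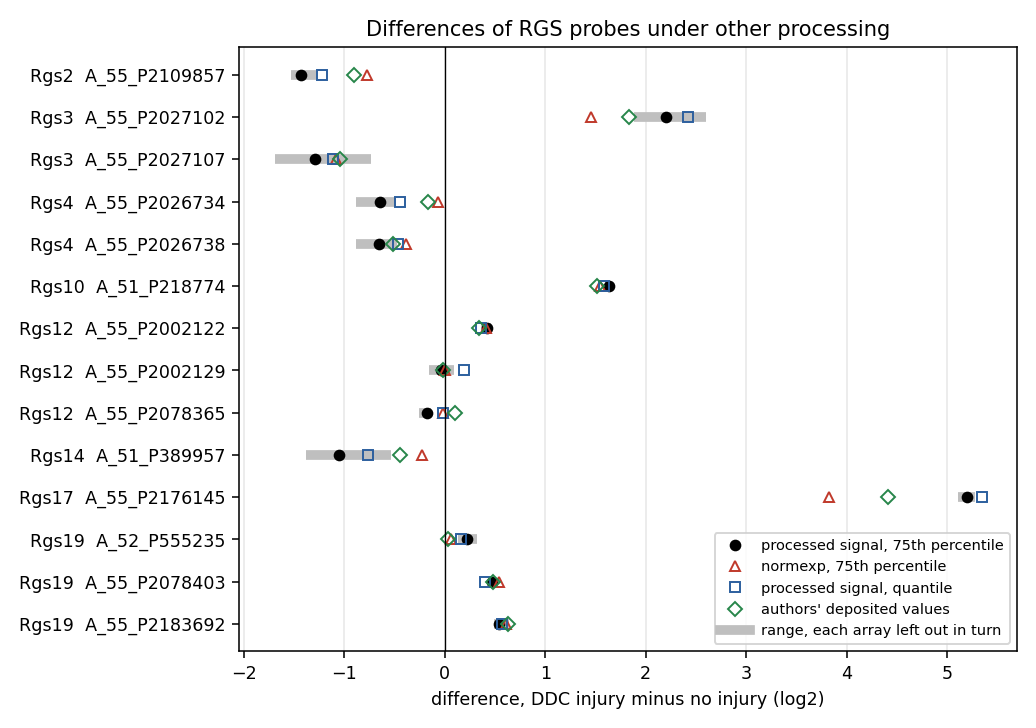
Difference between the groups (DDC injury minus no injury, log2, horizontal axis) for the 14 RGS probes well above background on all 6 arrays, with the processed signal scaled to the 75th percentile (black), normexp correction (red), quantile normalization (blue) and the authors' deposited values (green); grey bars span the values with each array left out in turn. Rgs10 and Rgs19 move little, Rgs17 ranges from 3.82 to 5.34 over the plotted values, the Rgs3 probes stay on opposite sides of 0, and Rgs14 and 1 probe of Rgs4 come close to 0 with normexp correction.

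The genes whose profiles over the 6 arrays were most like those of Rgs17 and Rgs2 were looked up among 15425 genes, by Euclidean distance after each profile was centred on its own mean. Closest to Rgs17 were the serine protease inhibitor Spink2 (distance 0.42), the phosphatase Ptpn22 (0.65) and Enpp2, which encodes the lysophosphatidic-acid-producing enzyme autotaxin (0.69). Ptpn22 differed by 5.67 and Enpp2 by 5.03. Spink2 was well above background on no array of the no-injury group. With the scaling used here it was at least 8.96-fold higher on the DDC injury arrays, a bound of the same kind as for Rgs2. Neither this bound nor the differences of Ptpn22 and Enpp2 were tested with other processing. The distance reflects the size of the step between the groups as much as the pattern within them. Closest to Rgs2 were Kctd21 (0.08), the secreted phospholipase Pla2g3 (0.12) and the adaptor Grb14 (0.15), with differences of -1.42, -1.48 and -1.43. These 3 genes shared with Rgs2 a lower value on DDC injury replicate 2 than on replicates 1 and 3. They were chosen by distance over the same arrays, so this likeness follows from the choice and is no separate result.

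**Figure D3:**
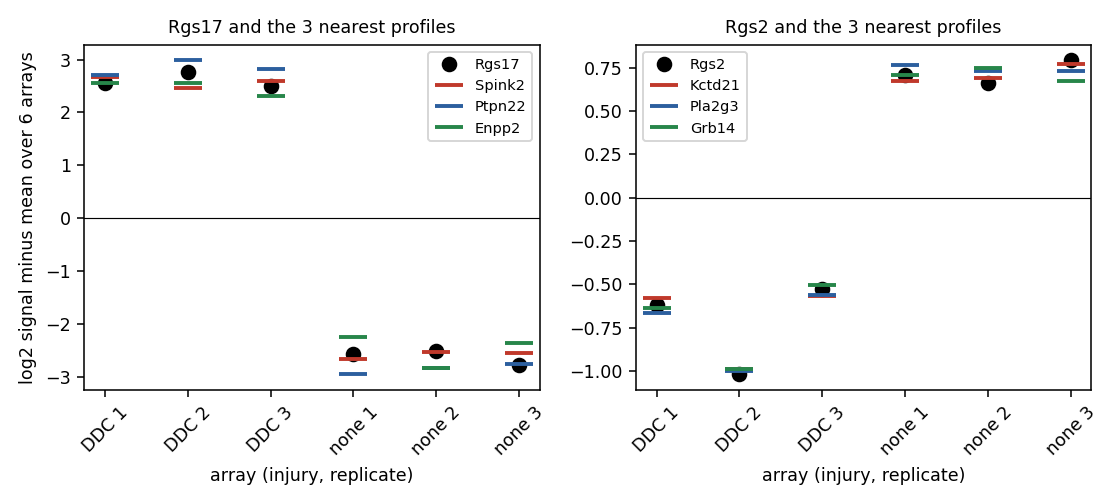
Profiles of Rgs17 (left) and Rgs2 (right, brighter probe) as black points with the 3 nearest genes as coloured bars, over the 6 arrays (horizontal axis, "none" standing for no injury), as log2 signal minus the gene's mean over the arrays. The Rgs17 neighbours share the large step between the groups (5.67 for Ptpn22 and 5.03 for Enpp2), and the Rgs2 neighbours also share the low value of DDC injury replicate 2. Both likenesses follow from the choice of the nearest profiles.

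Of 11 further RGS genes, 10 were named on the arrays and 7 were tested, and none passed limma's test with the scaling used here (adjusted p of 0.126 or more; 0 of the 7 also had an unadjusted p under 0.05), against 17.7% of 15616 tested genes called higher and 15.8% called lower. Besides Rgs20 these were Rgs1 (-0.93), a gene of activated lymphocytes, and the R7 members Rgs6 (-1.39), Rgs7, Rgs9 (-0.05) and Rgs11 (-1.16), which pair with the beta subunit Gnb5, and Rgs8 (-0.66). Rgs7 read -5.09, -8.96 and -7.15 on the DDC injury arrays and -9.66, -8.45 and -7.70 on the no-injury arrays, with overlap, and its mean was 2.82-fold higher in the DDC injury group (limma adjusted p = 0.401). With normexp correction Rgs7 differed by 0.66 and passed (limma adjusted p = 0.0267), and over the other alternatives that gave a value it did not. With the scaling used here the median difference of the 7 genes was -0.66, against -0.07 over all genes tested. Rgs1, Rgs6, Rgs7 and Rgs8 were not well above background on every array, and this median depended on the processing. With normexp correction Rgs1, Rgs8, Rgs9 and Rgs20 differed by 0.10, 0.11, 0.22 and 0.01, Rgs6 by -0.11 and Rgs11 by -0.81. The median of all genes was then 0.07. Rgs11 read -4.86, -3.76 and -3.49 on the DDC injury arrays and -2.90, -2.80 and -2.99 on the no-injury arrays, without overlap (limma adjusted p = 0.126). Without DDC injury replicate 1 its difference was -0.75 and passed (limma adjusted p = 0.0303). In simulated data with the spread of the real genes, the same fit recovered 27% of 2-fold and 70% of 8-fold shifts. The lack of calls among the 7 genes therefore does not show that their levels were unchanged. Rgs13, Rgs18 and Rgs22 did not pass the filter, and Rgs21 had no named probe. Of 8 leukocyte markers Itgam was called lower (-2.73, limma adjusted p = 0.00578) and none higher, and their summed linear signal was 2.97 to 6.46 times the 75th percentile on the DDC injury arrays and 7.60 to 7.92 times on the no-injury arrays, so that every DDC injury array lay lower, and most of the sum was Cd14 in both groups. The part of other cells in the levels of Rgs1 or Rgs10 was not tested.

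The partners of RGS proteins in G-protein signalling were followed through 7 lists with 184 genes, the RGS genes above among them, and 137 were tested. Of these 24 were called higher and 19 lower, 31.4% in all, near the 33.4% of all tested genes, and their median difference was -0.15. Without no-injury replicate 2, or with the 3 no-injury arrays merged as 1 sample, only the thrombin receptor F2r and the spindle-orientation gene Gpsm2 were called among them, both higher. Without DDC injury replicate 3 the counts were 13 higher and 10 lower. Values in the following paragraphs are from the comparison with 3 and 2 samples.

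The alpha subunits on which RGS proteins act were split. Of 13 tested, 3 were called higher and 2 lower, with a median of -0.05. Gnai3, a Gi subunit, had means of 3.65 ± 0.06 (SD, n = 3) and 3.01 ± 0.01 (SD, n = 2) and rose by 0.64 ± 0.10 (SE, limma adjusted p = 0.0121). Its relative Gnai1 read 0.70, 0.60 and 0.51 against 1.31, 1.24 and 1.35 and fell by 0.68 ± 0.11 (limma adjusted p = 0.0152). The Gq-class subunit Gna11 fell by 0.48 and the Gs subunit Gnas rose by 0.52, and the transducin Gnat2, better known from cone photoreceptors, differed by 1.24 at the edge of the threshold. Of 13 beta and gamma subunits 3 rose (Gng10 by 1.02, Gnb1 by 0.60 and Gnb2 by 0.41) and 2 fell (Gng7 by 1.89 and Gng12 by 0.60), with a median of 0.28. A second Gng12 probe differed by 0.34, a second Gnb1 probe by 0.07 and a second Gng7 probe by -0.73.

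Relatives that carry an RGS-like domain, with the arrestins, gave 3 calls each way among 16 tested genes, with a median of 0.00. The receptor kinase Grk6 rose by 0.83, the Wnt scaffold Axin1 by 0.71 and the kinase anchor Akap10 by 0.48 (limma adjusted p = 0.0469 for Akap10). A second Grk6 probe differed by 0.45 and a second Akap10 probe by 0.28, and with both the groups overlapped. The receptor kinase Grk5 fell by 1.33, the sorting nexin Snx13 by 0.85 and the guanine-nucleotide exchange factor Arhgef12 by 0.62. Of 11 other modulators 2 rose and 3 fell, with a median of -0.35. Gpsm2, which holds Gi alpha subunits in their inactive form and orients the mitotic spindle, rose by 2.03 ± 0.12 (SE, limma adjusted p = 0.00163), and read 1.61, 1.56 and 1.79 against -0.36, -0.40 and -0.35. Nucb1, a calcium-binding protein of the Golgi, rose by 0.37. Rgs9bp, which anchors Rgs9 to membranes in retina, fell by 0.94, Ccdc88c by 1.32 and the Rap1 inhibitor Rap1gap by 0.86.

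Of 27 effectors 5 were called higher and 4 lower, with a median of -0.10. The phospholipase Plcb1, a target of Gq, read -2.30, -2.50 and -2.55 on the DDC injury arrays against -3.91, -3.89 and -3.82 and rose by 1.43 ± 0.12 (SE, limma adjusted p = 0.00355). The protein kinase A subunit Prkar2b rose by 1.65 and the cyclic-AMP sensor Rapgef3 by 1.37, and all 3 Prkar2b probes differed by 1.38 to 1.65. The phospholipase Plcb4 fell by 1.21, the calcium channel Itpr1 by 0.78 and the Rac exchange factor Prex1 by 0.97. Prex1 was well above background on 1 DDC injury array, and with normexp correction its difference was 0.02.

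Of 50 tested receptors 8 were called higher and 5 lower, 26% in all against 33.4% of all tested genes. Their median was -0.42, against -0.07 over all genes tested, and its dependence on the processing was not tested. F2r, a thrombin receptor, read 3.80, 3.87 and 3.82 on the DDC injury arrays and 2.06, 2.12 and 2.07 on the no-injury arrays and rose by 1.74 ± 0.09 (SE, limma adjusted p = 0.0014). The related protease receptor F2rl1 fell by 1.57 ± 0.11 (limma adjusted p = 0.00249). The scavenging chemokine receptor Ackr3, which signals through arrestins, read -0.96, -2.32 and -0.93 against -5.40, -5.37 and -5.30 and rose by 3.96, and the serotonin receptor Htr1b rose by 1.18. Adora1, the Gi-coupled adenosine receptor, read -6.66, -7.45 and -8.45 against -1.96, -2.04 and -1.90 and fell by 5.53. Its DDC injury signal was well above background on 1 array only, as was that of the sphingosine-1-phosphate receptor S1pr5, which fell by 1.24.

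**Figure D4:**
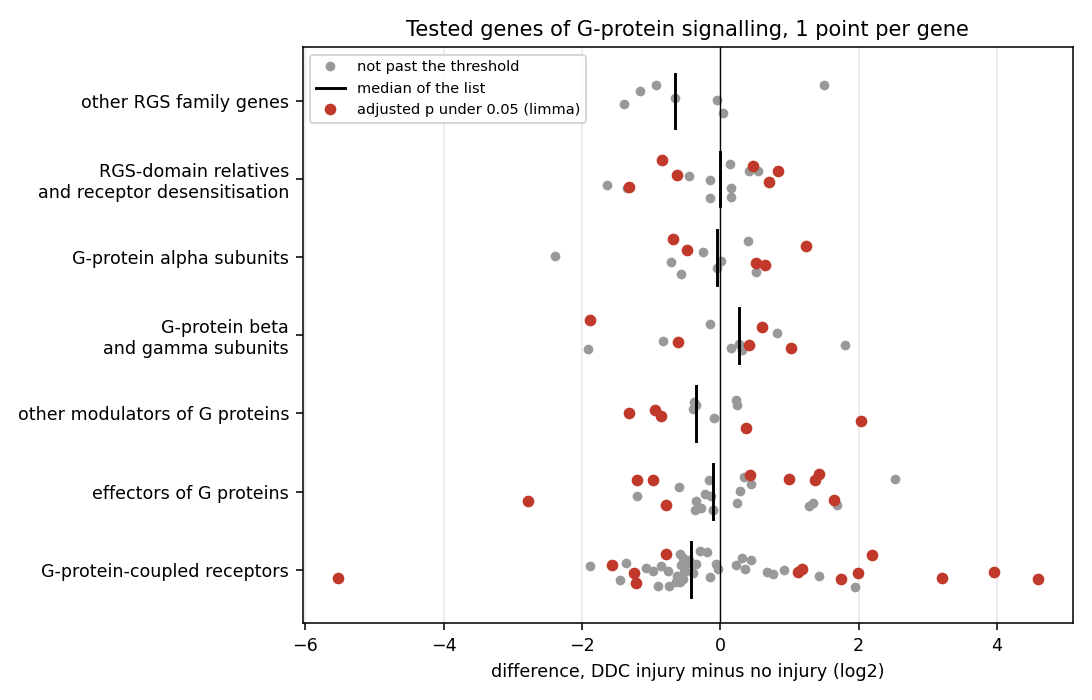
Difference between the groups (DDC injury minus no injury, log2, horizontal axis) for each tested gene in the 7 lists of G-protein signalling, 1 point per gene with vertical jitter, red where limma's adjusted p was under 0.05 and grey otherwise, with the median of each list as a black bar. Calls lie on both sides of 0 in every list except the other RGS genes, which have none with this scaling.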

How the data were processed

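Expression was measured on 6 arrays of Agilent design 026655, 3 per group. Per the file headers, Feature Extraction 11.0.1.1 read the spots, and the deposited signals are intensity values: the processed signal, background-subtracted and detrended, and median raw signals. The authors also deposited log2 values, normalized between arrays; the submitters' processing notes name limma without a version or steps. Outlier spots were dropped, log2 processed signals were scaled to each array's 75th percentile and repeated spots averaged. Of 39414 probes, 27223 took 1 symbol and none several through RefSeq accessions (GRCm38.p6; the array annotation is mm9, so no probe coordinates are given), and 12191 stay unnamed. The brightest probe represents a gene, tested if well above background on 3 arrays with 2 values per group. The comparison used limma 3.58.1 (R 4.3.3), two-sided, Benjamini-Hochberg over 15616 genes, threshold 0.05, after a check on simulated data. In that check the fit recovered 70% of 8-fold and 27% of 2-fold shifts and called 7 unshifted genes per run. The members and lists were chosen with earlier results of these data known. Named were all RGS probes, up to 3 genes called each way per list with the smallest adjusted p, every tested RGS gene, fixed cell type markers, and the 3 nearest profiles. Alternatives were other background correction, normalization, filters and probe summaries, other counting of the no-injury arrays, a replicate block, the scan as a random block, and each array left out. Normexp used an offset of 50. Precision depends on how many samples were independent.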

Additional observations from a re-analysis of the deposited data

How the results depend on the processing

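Over all genes 2761 were called higher and 2462 lower by limma. Averaging the no-injury arrays into a single sample gave 342 and 206 over all genes, and 2 and 0 over the G-protein signalling lists (24 and 19 otherwise). Leaving out each array in turn gave 344 to 3747 genes higher and 198 to 3139 lower, and 2 to 29 signalling genes higher and 0 to 24 lower. The lowest counts are those without no-injury replicate 2, where the lone no-injury sample is assumed to vary like the others, and without DDC injury replicate 3 there were 1706 and 1495 genes. Same-numbered arrays of the 2 groups deviated together only weakly (correlations 0.12, 0.02 and 0.12), so the numbers were not taken as pairs; with the replicate block 2839 and 2725 genes were called, 24 and 20 of them in the lists, and 30 of 33 named signalling genes kept their call. With 6 arrays as 6 samples 3849 and 3624 genes were called, and with the scan as a random block 2294 and 2015. The RGS genes whose arrays did not overlap numbered 3 to 5 higher and 3 to 4 lower over the alternatives. In these counts Rgs3 stands by its brightest probe, except where a gene's probes were averaged. Of 216 differences of single RGS probes under alternatives, 30 moved by more than 1 SD between replicates. Of the 33 named signalling genes with a call, 27 kept it with normexp correction, 26 in the authors' deposited table and 2 with the no-injury arrays averaged; Prex1 alone changed sign (0.0238 with normexp correction). Normexp with the 75th percentile moved the median of all genes by 0.14.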
